A study of Mus musculus with 21 samples.

Results

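The cathepsins are the main proteases of the lysosome, and 10 of their genes were followed here through cultured mouse mammary fibroblasts: Ctsb, Ctsc, Ctsd, Ctsf, Ctsh, Ctsk, Ctsl, Ctss, Ctsw and Ctsz. They were taken by symbol from a table of 45706 genes. The family was selected on measured values, since Ctsw showed the largest rise among them with TGFb1 in normal fibroblasts and Ctsf differed between the cell lines. All member values in those comparisons are therefore given as a description with no test. Of the 10 members 8 passed the filter on low counts, and Ctsc and Ctss did not. Ctsw passed it only through the groups of normal fibroblasts with TGFb1.

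Cathepsins are made as inactive proenzymes, tagged with a mannose phosphate in the Golgi, sorted to acidic compartments and activated there by removal of the propeptide. Ctsd is an aspartic protease, and the other members are cysteine proteases of the papain type, held in check by cystatins and related inhibitors. Fibroblasts use them to degrade endocytosed collagen and other proteins, and tumour stroma can also secrete them into the matrix.

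The 21 libraries form 7 groups of 3. CAF1 are fibroblasts of MMTV-PyMT mammary carcinomas, in which a viral oncogene acts in the mammary epithelium, and they received vehicle with siRNA against Hsp90aa1, siRNA against Hsp90ab1 or control siRNA. NF1 are fibroblasts of normal FVB/n mammary gland. They received TGFb1 with siRNA against Hsp90aa1, siRNA against Hsp90ab1 or control siRNA, or vehicle with control siRNA. Every culture had 100 nM of an siRNA pool at 60% confluence in medium with 10% serum. TGFb1, which drives fibroblasts toward a contractile, matrix-producing state, was at 5 ng/mL for 43 h, and RNA was taken 48 h after transfection. Hsp90aa1 and Hsp90ab1 encode the cytosolic HSP90 chaperones, of which the first is stress-inducible. Each origin is represented by 1 numbered line. NF knockdowns were measured with TGFb1 alone and CAF knockdowns with vehicle alone, so line and TGFb1 cannot be told apart where CAF and NF knockdowns are compared. The labels do not say that replicates are separate animals or cultures, so p-values reflect only how much these libraries vary, which may be technical.

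Libraries held 35087180 to 70421576 estimated counts, and 3 counts correspond to 0.0441 to 0.0865 CPM (counts scaled to library size, with TMM factors). Each siRNA lowered its target. Hsp90aa1 was at 10.05% of the control in CAF and 12.4% in NF, and Hsp90ab1 at 9.96% in CAF and 13.3% in NF. With siHsp90ab1, Hsp90aa1 itself stood at 47.6% of its control in CAF (adjusted p = 0.123) and 48.1% in NF (adjusted p = 0.0722). All 8 fibroblast markers, among them Col1a1, Pdgfra and Thy1, were present in each group. Of the markers of other cells, Krt19, an epithelial keratin, reached 34.5 TPM (a level scaled to transcript length and library size) in CAF. The summed epithelial markers were 7.26 to 34.7 TPM in CAF and 0.538 to 0.585 TPM in NF, both with control siRNA and vehicle. The part of these markers in any difference between CAF and NF was not tested, and in bulk RNA fewer cells of a type and less RNA per cell cannot be told apart. Mitochondrial genes took 4.30% of the counts in NF vehicle replicate 1 and 1.67% to 2.81% in the other 20 libraries.

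The stretches upstream of the RefSeq starts of Ctsf, Ctsk and Ctsd are shown, chosen among members with a matched promoter. Ctsf and Ctsk differed between the lines, Ctsf with TGFb1, and Ctsf and Ctsd with Hsp90aa1 knockdown. Ctsw, with the largest TGFb1 rise, could not be shown. RefSeq promoters (GRCm38.p6) were matched for 7 of the 10 members, and not for Ctsb, Ctsh and Ctsw. Capitals mark CACGTG, the core of the element that the lysosomal regulators of the TFEB and MITF family recognise, its longer form TCACGTG, which contains it, and CAGAC, the SMAD box, on either strand. The Ctsf stretch lies at chr19:4854915-4855129 on the plus strand, the Ctsk stretch at chr3:95498960-95499209 on the plus strand, and the Ctsd stretches at chr7:142388039-142388077 and chr7:142387908-142387937 on the minus strand. The inner Ctsd stretch lies in a Ctsd exon of the GENCODE annotation.
Ctsf: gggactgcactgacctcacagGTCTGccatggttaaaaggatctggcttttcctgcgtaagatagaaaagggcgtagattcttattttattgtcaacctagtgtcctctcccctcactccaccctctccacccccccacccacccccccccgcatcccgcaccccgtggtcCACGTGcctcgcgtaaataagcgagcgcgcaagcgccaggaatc
Ctsk: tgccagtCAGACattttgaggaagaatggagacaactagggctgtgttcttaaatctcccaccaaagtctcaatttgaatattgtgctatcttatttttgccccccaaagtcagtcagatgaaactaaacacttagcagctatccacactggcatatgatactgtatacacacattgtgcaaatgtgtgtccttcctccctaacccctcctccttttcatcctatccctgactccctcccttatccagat
Ctsd, outer: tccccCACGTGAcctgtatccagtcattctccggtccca
Ctsd, inner: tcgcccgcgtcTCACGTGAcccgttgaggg

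In the 250 bases before the RefSeq start, both strands searched, CACGTG was found in 3 of 7 members (Ctsd, Ctsf and Ctsl) and in 6.02% of all 32851 promoters. TCACGTG was found in Ctsd alone of the 7 and in 3.13% of all promoters. In Ctsd, CACGTG began at positions -245 and -98 from the start, and in Ctsf at -79. CAGAC was found in 4 of 7 members (Ctsf, Ctsk, Ctsl and Ctsz) and in 42.2% of all promoters. TGACTCA, the AP-1 element, was in none of the 7 members and in 4.46% of all promoters. The Ctsl window lies wholly inside the Ctsl gene of the GENCODE annotation, with 48 of its bases in exons. Its matches to CACGTG and CAGAC are therefore within the gene by that annotation. A match describes the letters only.

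Ctsb, Ctsd, Ctsl and Ctsz made up most of the cathepsin mRNA, and their order differed between the lines. In CAF with control siRNA, Ctsd stood at 247 ± 21.7 TPM (SD, n = 3), Ctsb at 226 ± 24.9 TPM and Ctsz at 214 ± 8.18 TPM, and the library ranges of these 3 overlapped. Ctsl at 113 ± 8.30 TPM and Ctsk at 69.1 ± 12.3 TPM followed without overlap. In NF with vehicle, Ctsl was highest at 307 ± 20.7 TPM, above Ctsb at 256 ± 28.2 TPM and Ctsd at 230.5 ± 15.6 TPM, whose ranges overlapped, and Ctsz stood at 163 ± 13.5 TPM. Ctsf, Ctsh and Ctsw were minor members, at 27.5 TPM or less in each library.

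The summed level was 903 to 1098 TPM in CAF with siHsp90aa1, 807 to 984 TPM with siHsp90ab1 and 799.7 to 946 TPM with control siRNA. In NF it was 894 to 1136 TPM with TGFb1 and siHsp90aa1, 828 to 917 TPM with TGFb1 and siHsp90ab1, 800.3 to 853 TPM with TGFb1 and 919 to 1015 TPM with vehicle. The NF sums with TGFb1 and control siRNA all lay below those with vehicle, and the CAF groups overlapped. Ctsl gave 12.7% to 13.0% of the sum in CAF with control siRNA and 29.6% to 35.0% in NF with vehicle. Ctsd gave 33.6% to 34.4% in CAF with siHsp90aa1 and 27.9% to 28.5% in CAF with control siRNA.

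**Figure D1:**
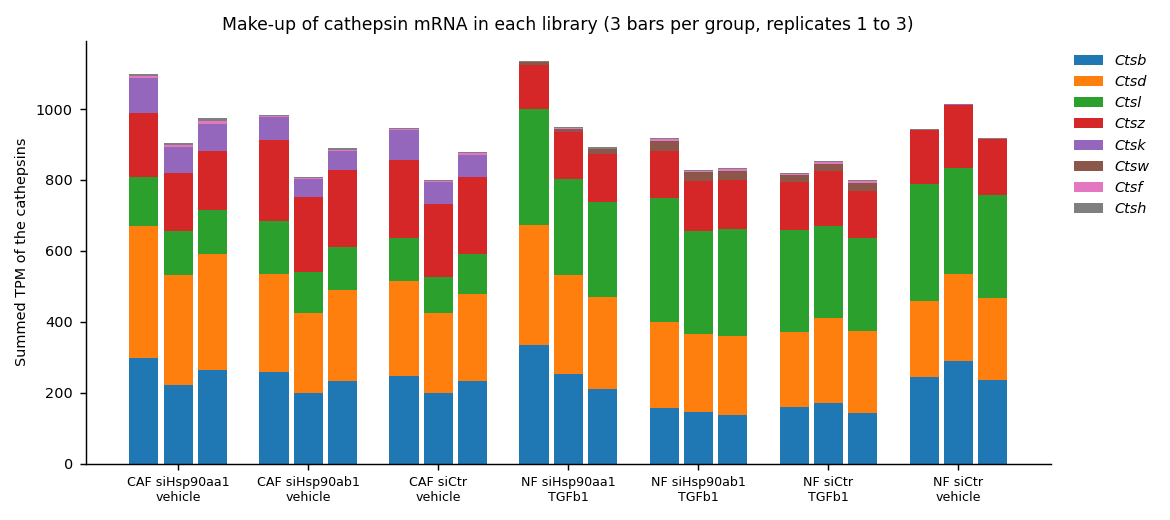
Stacked bars give the TPM of 8 cathepsins in each library, with 3 bars per group for replicates 1 to 3; the vertical axis is summed TPM. The green Ctsl segment is smaller in the CAF bars (12.7% to 13.0% of the sum with control siRNA) than in the NF bars (29.6% to 35.0% with vehicle), and Ctsk is visible in the CAF bars.

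Knockdown of Hsp90aa1 changed several members in both lines, and 0 members passed with knockdown of Hsp90ab1. A gene was called at an adjusted p under 0.05 in edgeR's quasi-likelihood test over 15230 genes. With siHsp90aa1 in CAF, 3 of 8 members were called, where 25.4% of all genes were. Ctsd and Ctsf were higher (12.5% of all genes) and Ctsz was lower (12.9%). With siHsp90aa1 in NF with TGFb1, 4 of 8 were called, where 28.3% of all genes were. Ctsb and Ctsd were higher (14.8% of all genes) and Ctsf and Ctsw lower (13.5%). The control libraries of this comparison are those that chose Ctsw, so its place in the count is no support. Likewise the CAF control libraries took part in choosing Ctsf, so its place in the CAF count is no support. With 8 genes tested, these counts are read as a description of the members and not as an excess over all genes. With the replicate number as a block the count in CAF was 5, with Ctsk (adjusted p = 0.0461) and Ctsl (adjusted p = 0.00217) added. The share of all genes called in that fit is not given here, so this count too is a description only.

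With siHsp90ab1, 0 of 8 members were called in CAF, where 0.900% of all genes were (0.466% higher, 0.433% lower). In NF with TGFb1 0 of 8 were called, where 2.69% of all genes were (1.06% higher, 1.62% lower). DESeq2 called 0 members as well, and 318 genes in CAF and 707 in NF with TGFb1. At an unadjusted p under 0.05 there were also 0 members in either line, and the share of all genes at that threshold is not given here. The difference between the lines in the effect of siHsp90ab1 was called for 0 of 8 members, where 0.00657% of all genes were called. It was also 0 members at an unadjusted p under 0.05. With so few genes called in all, 0 of 8 is not read as a result about the members.

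The knockdowns were also set against each other, in libraries that had no part in choosing the family, whereas the control libraries did. In CAF this called 4 of 8 members, where 26.3% of all genes were called. Ctsd, Ctsf and Ctsk were higher with siHsp90aa1 than with siHsp90ab1 (13.1% of all genes) and Ctsz was lower (13.3%). In NF it called 4 of 8, where 34.1% of all genes were called. Ctsb and Ctsd were higher with siHsp90aa1 (17.7% of all genes) and Ctsf and Ctsw lower (16.4%).

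In the comparisons that chose the family, 29.0% of all genes were called with TGFb1 in NF (14.6% higher, 14.4% lower). For CAF over NF with vehicle it was 61.6% (31.6% higher, 30.0% lower).

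**Figure D2:**
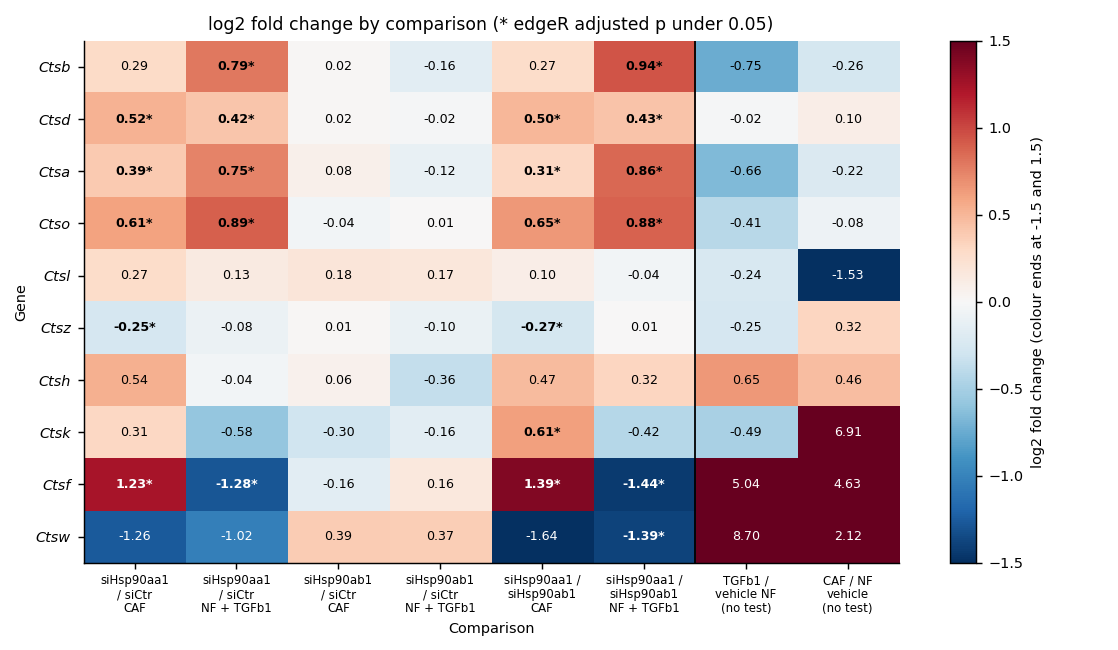
Each cell gives a log2 fold change for a gene (rows) in a comparison (columns), numerator first, with red for higher and blue for lower; asterisks mark an edgeR adjusted p under 0.05, and the last pair of columns, and Ctsw against the TGFb1 control with siHsp90aa1, carry no test. Ctsf is -1.28 in NF and 1.23 in CAF with siHsp90aa1, and the siHsp90ab1 columns hold no asterisk. The asterisk of Ctsf with siHsp90aa1 over control siRNA in CAF rests on control libraries that took part in choosing it.

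Ctsw, also called lymphopain, is a papain-type protease known from cytotoxic T cells and natural killer cells. Its gene (ENSMUSG00000024910) lies at chr19:5465043-5468507 on the minus strand of GRCm38. It reached 18.7, 18.7 and 21.8 TPM in NF with TGFb1, against 0, 0.0375 and 0.101 TPM in NF with vehicle. All NF libraries with TGFb1 were high and all with vehicle were at or near the floor.

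The counts behind Ctsw were 521, 605 and 473 in NF with TGFb1 and 0, 1 and 3 in NF with vehicle. The depth-adjusted ratio of the summed counts was 455 (95% exact interval 177 to 1672, counting error only). The fitted log2 fold change was 8.70 ± 0.55 (SE), and it was 8.05 without NF vehicle replicate 1 and 9.89 without NF vehicle replicate 3. In CAF with control siRNA Ctsw had 12, 1 and 6 counts, so the gene was near the floor in CAF too. The CAF to NF ratio with vehicle was 4.82 (95% exact interval 1.60 to 19.5), and the libraries overlapped. The fitted log2 value of 2.12 ± 0.88 was 1.48 without NF vehicle replicate 1, 1.52 without CAF control replicate 1 and 3.31 without NF vehicle replicate 3.

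The level of Ctsw with TGFb1 differed between the knockdowns. It was 7.01, 8.19 and 13.5 TPM in NF with TGFb1 and siHsp90aa1, and 27.5, 23.7 and 27.5 TPM with TGFb1 and siHsp90ab1. The siHsp90aa1 libraries all lay below the TGFb1 controls and the siHsp90ab1 libraries all above them.

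Between the knockdowns the log2 difference in Ctsw was -1.39 ± 0.31 (adjusted p = 0.00238 in edgeR). The TGFb1 control libraries chose Ctsw, so its values against them are given with no test. They were -1.02 ± 0.31 with siHsp90aa1 and 0.37 ± 0.31 with siHsp90ab1. Even with siHsp90aa1, Ctsw had 214 to 298 counts per library, far above NF with vehicle.

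Of the markers of the cells that normally express Ctsw, most were absent and 1 reached 1 TPM. Of 12 cytotoxic lymphocyte markers 8 were at 0 in all 21 libraries, among them Cd3e, Cd8a, Prf1 and Gzmb. The summed list was 1.79 to 2.91 TPM in NF with TGFb1 and siHsp90aa1, 2.88 to 4.31 TPM with TGFb1 and siHsp90ab1, 2.64 to 3.79 TPM with TGFb1 and 0.383 to 1.03 TPM with vehicle. Nearly all of it was Il2rb, the beta chain of the interleukin receptor, at up to 3.78 TPM. The neighbour Fibp, which overlaps Ctsw by 9 bases on the other strand, had a log2 value of -0.11 ± 0.10 with TGFb1. The nearest coding genes that do not overlap Ctsw were higher with TGFb1, Ccdc85b by 0.89 ± 0.16 and Efemp2 by 0.75 ± 0.13.

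**Figure D3:**
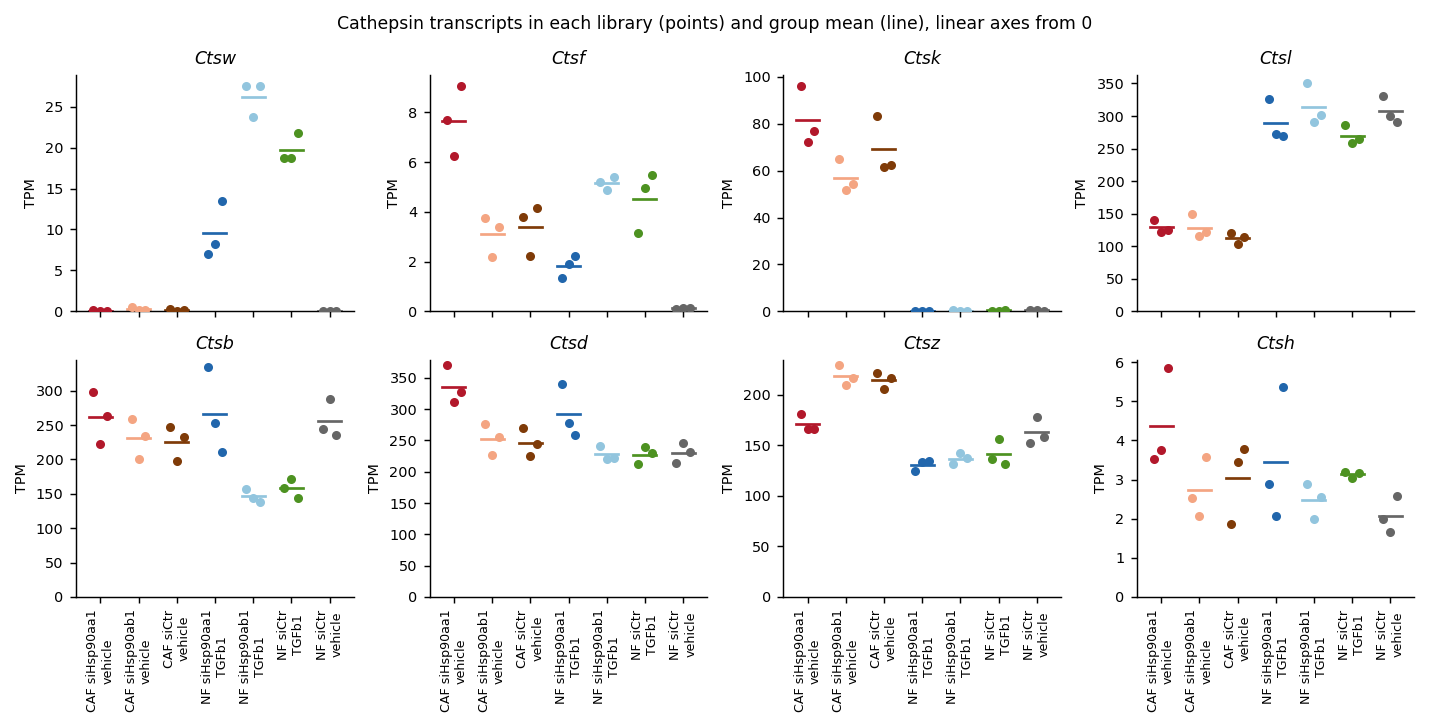
Each panel gives the TPM of a cathepsin in each library (points) with the group mean (line), on a linear axis from 0; groups run from CAF at left to NF with vehicle at right. Ctsw is high in the 9 NF libraries with TGFb1 (7.01 to 27.5 TPM), and Ctsk in the 9 CAF libraries (51.6 to 96.1 TPM).

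Ctsf is a ubiquitous papain-type cathepsin with an unusually long propeptide that carries a cystatin-like domain. Its gene (ENSMUSG00000083282) lies on the same chromosome as Ctsw, at chr19:4855130-4860918 on the plus strand. CAF with control siRNA held 3.81, 2.23 and 4.17 TPM of Ctsf, NF with TGFb1 held 3.14, 4.97 and 5.46 TPM, and NF with vehicle 0.102, 0.154 and 0.138 TPM, which is 7 counts in each library. NF with TGFb1 and CAF overlapped, and neither overlapped NF with vehicle.

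As a description, the depth-adjusted count ratio of Ctsf was 33.7 (95% exact interval 21.9 to 54.9) for TGFb1 over vehicle in NF, with a log2 fold change of 5.04 ± 0.34. It was 26.5 (17.2 to 43.1) for CAF over NF, with 4.63 ± 0.34. Both use the NF vehicle libraries. Actn3, which lies 298 bases beyond Ctsf on the other strand, also stood higher in both, by 1.55 ± 0.40 with TGFb1 and by 2.82 ± 0.40 in CAF.

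Knockdown of Hsp90aa1 moved Ctsf in opposite directions in the lines. In CAF it reached 7.67, 6.22 and 9.07 TPM with siHsp90aa1, against 3.81, 2.23 and 4.17 TPM with control siRNA. NF with TGFb1 held 1.35, 1.89 and 2.21 TPM with siHsp90aa1, against 3.14, 4.97 and 5.46 TPM with control siRNA. The groups did not overlap in either line.

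In CAF Ctsf rose by 1.23 ± 0.25 on the log2 scale (adjusted p = 0.00152 in edgeR), and in NF with TGFb1 it fell by 1.28 ± 0.26 (adjusted p = 0.00134). The difference of the effects, CAF minus NF, was 2.51 ± 0.36 (adjusted p = 0.000732). Ctsf was the 1 member of 8 with a called difference, where 5.46% of all genes had one (2.44% higher, 3.02% lower). With siHsp90ab1 it was 3.76, 2.19 and 3.41 TPM in CAF and 5.19, 4.89 and 5.41 TPM in NF with TGFb1, and both overlapped their controls. The CAF control libraries took part in choosing Ctsf, so the CAF test and the test of the difference are no support of their own. Set against siHsp90ab1, with no library that chose the family, siHsp90aa1 gave 1.39 ± 0.25 in CAF (adjusted p = 0.000709) and -1.44 ± 0.26 in NF (adjusted p = 0.000341).

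The order of the lines in Ctsf therefore differed with the knockdown. Between CAF with vehicle and NF with TGFb1, Ctsf was higher in CAF by 2.10 ± 0.26 with siHsp90aa1 in both (adjusted p = 1.43e-06). With siHsp90ab1 in both it was lower in CAF by a log2 value of -0.73 ± 0.25 (adjusted p = 0.0186). The siHsp90ab1 call was lost without CAF siHsp90ab1 replicate 2 (adjusted p = 0.0980). Line and TGFb1 differ together in both.

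**Figure D4:**
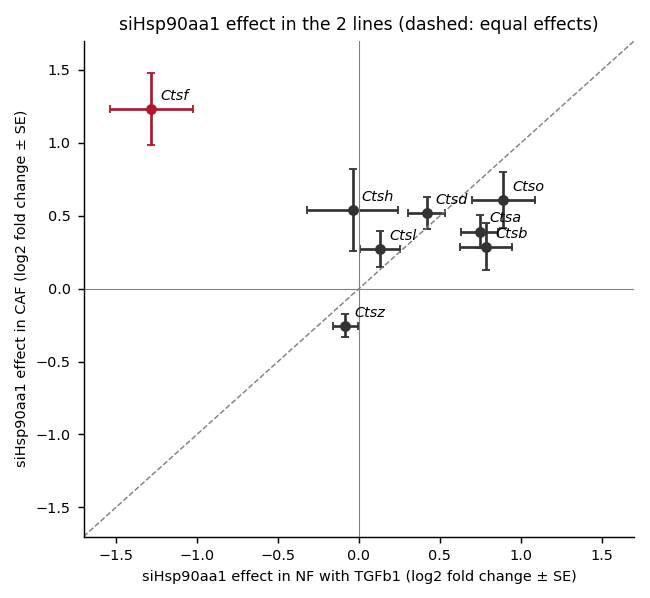
Points give the log2 fold change with siHsp90aa1 over control siRNA in NF with TGFb1 (horizontal) and in CAF (vertical) for 6 members and for Ctsa and Ctso, with standard errors as bars; the dashed line marks equal effects. Ctsf lies far in the upper left at -1.28 in NF and 1.23 in CAF, and Ctsd lies close to the line at 0.42 and 0.52. Ctsh has the same signs as Ctsf, at -0.04 and 0.54. Ctsk and Ctsw are not plotted. Ctsk also had these signs, at -0.58 and 0.31, and neither Ctsh nor Ctsk was called in either line.

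Ctsk is the collagen-degrading cathepsin best known from osteoclasts, and Ctsl is an endopeptidase found in most cells. They separated the lines in opposite directions. Ctsk (ENSMUSG00000028111, chr3:95499256-95509362, plus strand) stood at 83.4, 61.6 and 62.5 TPM in CAF with control siRNA, against 0.566, 0.653 and 0.398 TPM in NF with vehicle. Ctsl (ENSMUSG00000021477, chr13:64359337-64370890, minus strand) stood at 119.7, 103 and 115 TPM in CAF with control siRNA, against 330.2, 300.3 and 290.5 TPM in NF with vehicle. Neither gene overlapped between the lines.

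As a description, the count ratio of Ctsk in CAF over NF was 125 (95% exact interval 98.1 to 162), and the log2 fold change of Ctsl was -1.53 ± 0.13. Libraries that had no part in choosing the family gave tests with knockdowns in both lines. Ctsk was higher in CAF with siHsp90aa1 than in NF with TGFb1 and siHsp90aa1 by 8.29 ± 0.27 (adjusted p = 4.65e-14 in edgeR), and with siHsp90ab1 in both by 7.25 ± 0.26 (adjusted p = 1.36e-13). Ctsl was lower in CAF by a log2 value of -1.15 ± 0.13 with siHsp90aa1 (adjusted p = 3.43e-07) and of -1.29 ± 0.13 with siHsp90ab1 (adjusted p = 9.55e-08). With siHsp90aa1 in both, 5 of 8 members differed between the lines, where 60.0% of all genes did (30.7% higher in CAF, 29.3% lower). With siHsp90ab1 in both, 6 of 8 members differed, where 57.5% of all genes did (29.4% higher, 28.1% lower). Both counts include Ctsw, which passed the filter only through the NF groups with TGFb1 and so had to differ here. Nothing is read from these counts. In these tests, too, TGFb1 and line cannot be told apart.

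Of 6 osteoclast markers Calcr was at 0 in all libraries, and Mmp9 was the 1 that reached 1 TPM. The summed list, nearly all of it Mmp9, was 8.24 to 10.2 TPM in CAF and 18.4 to 29.8 TPM in NF, both with control siRNA and vehicle. Acp5, an osteoclast phosphatase, averaged 0.350 ± 0.113 CPM in CAF and 0.0674 ± 0.0484 CPM in NF in the same groups. The part of such cells in the level of Ctsk was not tested. In the neighbourhood of Ctsk on chromosome 3, Ctss begins 17424 bases downstream and had at most 2 counts per library.

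Within CAF, Ctsk differed between the knockdowns. It was 96.1, 72.3 and 76.7 TPM with siHsp90aa1 and 64.7, 51.6 and 54.1 TPM with siHsp90ab1, and the controls overlapped both. siHsp90aa1 exceeded siHsp90ab1 by 0.61 ± 0.17 on the log2 scale (adjusted p = 0.0131 in edgeR). The call was lost without CAF siHsp90aa1 replicate 1 (adjusted p = 0.0805) or siHsp90ab1 replicate 2 (adjusted p = 0.0728). Against control siRNA neither knockdown passed, with 0.31 ± 0.17 for siHsp90aa1 (adjusted p = 0.191, and 0.0461 with the replicate block) and -0.30 ± 0.17 for siHsp90ab1 (adjusted p = 0.687). Ctsk in NF with TGFb1 stayed at 0.181 to 0.621 TPM under all 3 siRNAs.

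For Ctsl, NF libraries with TGFb1 held 287, 259 and 265 TPM, below all 3 with vehicle, although the groups overlapped in CPM (log2 -0.24 ± 0.12). With siHsp90aa1 Ctsl was 140.2, 122 and 125 TPM in CAF, above all 3 controls, and 326, 273 and 269 TPM in NF with TGFb1. The effects of 0.27 ± 0.13 in CAF (adjusted p = 0.124, and 0.00217 with the replicate block) and 0.13 ± 0.12 in NF (adjusted p = 0.473) did not pass in edgeR. The annotation places a pseudogene, Gm49230, inside Ctsl on the same strand, so some reads could be shared.

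Ctsd, the aspartic protease of the lysosome, was the member that siHsp90aa1 raised in both lines. Its gene (ENSMUSG00000007891) lies at chr7:142375911-142388038 on the minus strand. In CAF it held 371, 311 and 327 TPM with siHsp90aa1, against 269, 226 and 245 TPM with control siRNA. NF with TGFb1 held 339, 277 and 258 TPM with siHsp90aa1, against 213, 239.9 and 229 TPM with control siRNA. Every siHsp90aa1 library lay above every control of its line.

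The rise of Ctsd was 0.52 ± 0.11 on the log2 scale in CAF (adjusted p = 0.00270 in edgeR) and 0.42 ± 0.11 in NF (adjusted p = 0.0103). The NF call was lost without siHsp90aa1 replicate 1 (adjusted p = 0.0826) or TGFb1 control replicate 1 (adjusted p = 0.0529). The difference of the effects was 0.10 ± 0.16 (adjusted p = 0.788). Over siHsp90ab1 the values were 0.50 ± 0.11 in CAF (adjusted p = 0.00356) and 0.43 ± 0.11 in NF (adjusted p = 0.00633, and 0.0551 without NF siHsp90aa1 replicate 1). TGFb1 left Ctsd at 213 to 239.9 TPM in NF, beside 215 to 246 TPM with vehicle. Another protein-coding gene model, Gm49369, covers 6757 bases of Ctsd on the same strand.

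Ctsb, which cleaves both inside proteins and as a dipeptidase at their ends, stood apart by its pattern in NF. Its gene (ENSMUSG00000021939) lies at chr14:63122462-63145923 on the plus strand. It held 335, 253.5 and 211 TPM in NF with TGFb1 and siHsp90aa1, 157.5, 145 and 138 TPM with TGFb1 and siHsp90ab1, 159, 172 and 144 TPM with TGFb1 and 244, 288 and 236 TPM with vehicle. The TGFb1 libraries with siHsp90aa1 overlapped those with vehicle, and the other TGFb1 libraries all lay below both.

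Ctsb in NF with TGFb1 rose by 0.79 ± 0.16 on the log2 scale with siHsp90aa1 (adjusted p = 0.00160 in edgeR) and was 0.94 ± 0.16 above siHsp90ab1 (adjusted p = 0.000238). The value for TGFb1 over vehicle, as a description, was -0.75 ± 0.16. The TGFb1 control libraries serve both comparisons. In CAF Ctsb held 299, 222 and 263 TPM with siHsp90aa1, against 247, 198 and 232 TPM with control siRNA, and 0.29 ± 0.16 did not pass (adjusted p = 0.207). The effects in CAF and NF differed by -0.50 ± 0.23, which did not pass either (adjusted p = 0.228).

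Ctsz is a carboxypeptidase whose proenzyme can bind integrins. Its gene (ENSMUSG00000016256) lies at chr2:174427493-174439039 on the minus strand. In CAF it held 181, 166 and 166 TPM with siHsp90aa1, 229, 209.9 and 216 TPM with siHsp90ab1 and 221, 205 and 216.5 TPM with control siRNA. All siHsp90aa1 libraries lay below all others of CAF.

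Ctsz was the member called lower in CAF. It fell by 0.25 ± 0.08 on the log2 scale with siHsp90aa1 in CAF (adjusted p = 0.0237 in edgeR) and lay 0.27 ± 0.08 below siHsp90ab1, as a log2 value of -0.27 (adjusted p = 0.0177). The first call was lost without CAF control replicate 1 (adjusted p = 0.0807) or siHsp90aa1 replicate 2 (0.0781) or 3 (0.0678). The second was lost without siHsp90ab1 replicate 1 (adjusted p = 0.0752) or siHsp90aa1 replicate 2 (0.0630) or 3 (0.0569). Ctsz in NF with TGFb1 held 124 to 135 TPM with siHsp90aa1 and 132 to 156 TPM with control siRNA, and -0.08 ± 0.08 did not pass (adjusted p = 0.457). Ctsz was higher in CAF than in NF with TGFb1 for either knockdown, by 0.40 ± 0.08 with siHsp90aa1 (adjusted p = 0.000234) and 0.68 ± 0.08 with siHsp90ab1 (adjusted p = 7.22e-07).

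Ctsh, an aminopeptidase, was low throughout, at 1.67 to 5.85 TPM, and was called in no tested comparison. It held 3.52, 3.76 and 5.85 TPM in CAF with siHsp90aa1, against 1.87, 3.44 and 3.77 TPM with control siRNA (adjusted p = 0.177 in edgeR, and 0.0330 without CAF control replicate 3). Its TPM and CPM ranked libraries differently, with 5.37 TPM and 2.50 CPM in NF siHsp90aa1 replicate 3 beside 2.88 TPM and 2.21 CPM in replicate 1.

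Ctsc and Ctss are the members best known from immune cells, Ctsc as the activator of granule proteases and Ctss as a processor of the class II invariant chain. Ctsc had 0 counts in all 21 libraries. Ctss had 11 counts in all, in 8 libraries, with at most 2 in a library. Neither was detectable above 0.0865 CPM, the worth of 3 counts in the shallowest library. Tyrobp, a myeloid marker, was at 0 in all libraries, and 4 of 9 macrophage markers reached 1 TPM, with Cd14 highest at 17.9 TPM.

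Among 13 further cathepsin genes, Ctsa and Ctso were the 2 that passed the filter on low counts, and both rose with siHsp90aa1. Ctsa, the serine carboxypeptidase that protects lysosomal glycosidases, averaged 216 ± 23.7 CPM in CAF with siHsp90aa1 and 164 ± 13.3 CPM with control siRNA (SD, n = 3 each). NF with TGFb1 averaged 203 ± 30.9 CPM with siHsp90aa1 and 121 ± 10.4 CPM with control siRNA. Ctso, a minor cysteine cathepsin, averaged 10.9 ± 1.03 CPM in CAF with siHsp90aa1 and 7.15 ± 1.02 CPM with control siRNA, and in NF 10.55 ± 0.364 CPM with siHsp90aa1 and 5.69 ± 0.696 CPM with control siRNA.

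The log2 fold changes of Ctsa were 0.39 ± 0.11 in CAF (adjusted p = 0.0165 in edgeR) and 0.75 ± 0.11 in NF (adjusted p = 0.000141). Those of Ctso were 0.61 ± 0.19 in CAF (adjusted p = 0.0283) and 0.89 ± 0.20 in NF (adjusted p = 0.00267). Neither CAF call held without CAF control replicate 2 (adjusted p = 0.0990 for Ctsa and 0.128 for Ctso), siHsp90aa1 replicate 1 (0.0880 and 0.0620) or siHsp90aa1 replicate 3 (0.0610 and 0.113), and that of Ctso was also lost without control replicate 1 (0.0948).

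Many other hydrolases of the lysosome were also higher with siHsp90aa1. The hydrolase list of 28 genes also holds Npc2, a cholesterol-binding protein of the lysosome and not a hydrolase. With siHsp90aa1 in NF with TGFb1, 19 of the 28 were higher and 0 lower, where 14.8% of all genes were higher and 13.5% lower. The median log2 fold change was 0.48 beside 0.01 over all genes. In CAF 12 were higher and 1 lower (12.5% and 12.9% of all genes), with a median of 0.31 beside 0.03, and with the replicate block 15 were higher and 2 lower. In CAF 7 were higher without CAF control replicate 2. The lower count there was 0 without control replicate 1 or 2 or siHsp90aa1 replicate 2 or 3, and 2 without siHsp90aa1 replicate 1. Arsa, which degrades sulfatides, rose by 0.64 ± 0.14 in CAF (adjusted p = 0.00316 in edgeR) and by 0.85 ± 0.14 in NF (adjusted p = 0.000330). Tpp1, a tripeptidyl peptidase, rose by 0.58 ± 0.10 in CAF (adjusted p = 0.000578) and by 0.75 ± 0.10 in NF (adjusted p = 5.94e-05). With siHsp90ab1, 0 of 28 were called in CAF (0.900% of all genes) and 1 higher (Scpep1) and 1 lower (Npc2) in NF (1.06% and 1.62% of all genes). With the replicate block 2 were lower in NF. The Scpep1 call remained on leaving out TGFb1 control replicate 2 and was lost on leaving out any other library of those groups, and the lower count was 2 without TGFb1 control replicate 3. Directly against siHsp90ab1, 22 of 28 were higher with siHsp90aa1 in NF (17.7% of all genes) and 14 higher and 2 lower in CAF (13.1% and 13.3%), where the lower count was 0 without siHsp90ab1 replicate 1 or siHsp90aa1 replicate 2 or 3 and 1 without siHsp90ab1 replicate 2. With TGFb1 in NF, as counts only, 10 of the 28 were lower and 1 higher than with vehicle (14.4% and 14.6% of all genes), and the 1 was lost without vehicle replicate 1 or TGFb1 replicate 2 or 3.

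Genes of the lysosomal membrane and proton pump were mostly higher among those called. Of 16 such genes, 7 were higher and 1 lower with siHsp90aa1 in CAF (12.5% and 12.9% of all genes), and 9 were higher and 0 lower in NF (14.8% and 13.5%), where 4 were higher without siHsp90aa1 replicate 1. Ctns, the cystine exporter, rose by 1.02 ± 0.19 in CAF (adjusted p = 0.000921 in edgeR) and by 0.94 ± 0.19 in NF (adjusted p = 0.00153). Atp6v0d1, a subunit of the proton pump, rose by 0.55 ± 0.09 in CAF (adjusted p = 0.000323) and by 0.56 ± 0.09 in NF (adjusted p = 0.000265). Atp6ap2, an accessory protein of the pump, was the gene that fell in CAF (-0.54 ± 0.10, adjusted p = 0.000806).

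**Figure D5:**
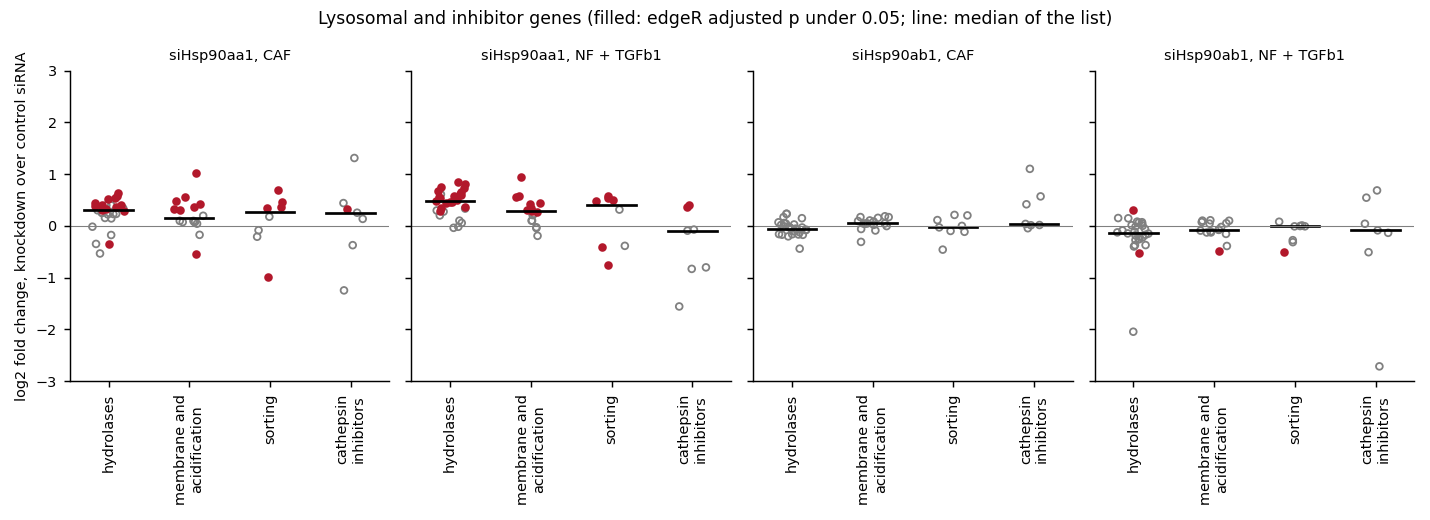
Points give the log2 fold change of each tested gene of 4 lists (columns within a panel) with a knockdown over control siRNA, by line; filled points have an edgeR adjusted p under 0.05 and lines mark the median of a list. Filled points lie mostly above 0 in the siHsp90aa1 panels (12 of 28 genes of the hydrolase list higher in CAF and 19 in NF), and are few in the siHsp90ab1 panels.

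The machinery that tags and carries cathepsins to the lysosome was split. Igf2r, a receptor for the mannose phosphate tag, averaged 232 ± 11.8 CPM in CAF with siHsp90aa1 and 169 ± 6.27 CPM with control siRNA (0.46 ± 0.09, adjusted p = 0.00101 in edgeR). The rise in NF with TGFb1 was 0.50 ± 0.09 (adjusted p = 0.000439). M6pr, another such receptor, went the other way with siHsp90aa1. Its log2 value was -0.40 ± 0.09 in NF (adjusted p = 0.00343) and -0.21 ± 0.09 in CAF, which did not pass (adjusted p = 0.103). Against siHsp90ab1 in CAF it was -0.42 ± 0.09 (adjusted p = 0.00268). Gnptab, a subunit of the enzyme that makes the tag, averaged 32.35 ± 3.95 CPM in CAF with siHsp90aa1 and 63.8 ± 7.01 CPM with control siRNA, a log2 value of -0.98 ± 0.13 (adjusted p = 3.69e-05). In NF it averaged 94.35 ± 12.5 CPM with siHsp90aa1 and 159.5 ± 7.59 CPM with control siRNA, a log2 value of -0.76 ± 0.12 (adjusted p = 0.000241). Gnptg, another subunit of that enzyme, went the other way with siHsp90aa1. It rose by 0.70 ± 0.14 in CAF (adjusted p = 0.0013) and by 0.49 ± 0.14 in NF (adjusted p = 0.0134). With siHsp90ab1 Gnptab was also lower, by a log2 value of -0.50 ± 0.12 in NF (adjusted p = 0.0333). That call was lost on leaving out any library of those groups. In CAF -0.46 ± 0.12 did not pass (adjusted p = 0.103). With siHsp90aa1, 4 of the 8 sorting genes were higher and 1 lower in CAF (12.5% and 12.9% of all genes), and 4 were higher and 2 lower in NF (14.8% and 13.5%). In CAF 2 were higher without control replicate 1 or 2 or siHsp90aa1 replicate 1 or 3, and 2 were lower without control replicate 3.

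Of the regulators of lysosomal genes, 7 of 8 were tested. With siHsp90aa1, 2 were higher in CAF (12.5% of all genes) and 1 in NF (14.8%), or 2 in NF with the replicate block or without siHsp90aa1 replicate 3. Mitf had the largest called change with siHsp90aa1 in both lines. Mitf, a transcription factor of the TFEB family, averaged 12.8 ± 1.52 CPM in CAF with siHsp90aa1 and 8.95 ± 0.1145 CPM with control siRNA (0.51 ± 0.13, adjusted p = 0.00609 in edgeR). In NF it averaged 41.1 ± 4.87 CPM with TGFb1 and siHsp90aa1, 14.7 ± 0.559 CPM with TGFb1 and 43.1 ± 8.50 CPM with vehicle. The rise with siHsp90aa1 in NF was 1.48 ± 0.12 (adjusted p = 6.19e-07), and it exceeded that in CAF, with a CAF minus NF difference of -0.97 ± 0.18 (adjusted p = 0.00400). Zkscan3, a repressor of such genes, rose in CAF by 0.36 ± 0.09 (adjusted p = 0.00509), a call lost in a fit of the CAF groups compared alone (adjusted p = 0.0577).

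Of 16 genes of cathepsin inhibitors 7 were tested. In CAF against NF with TGFb1, 5 were higher and 1 lower with siHsp90aa1 in both (30.7% and 29.3% of all genes), and 6 higher and 1 lower with siHsp90ab1 in both (29.4% and 28.1%). Ctla2a, whose protein resembles a cathepsin propeptide, averaged 103 ± 49.6 CPM in CAF with siHsp90aa1 and 0.386 ± 0.0583 CPM in NF with TGFb1 and siHsp90aa1 (8.03 ± 0.50, adjusted p = 1.51e-10 in edgeR). With siHsp90ab1 it averaged 101 ± 29.3 CPM in CAF and 1.02 ± 0.290 CPM in NF (6.63 ± 0.44, adjusted p = 5.50e-10). Cst3, cystatin C, was higher in CAF by 1.16 ± 0.13 with siHsp90aa1 in both (adjusted p = 3.37e-07).

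With siHsp90aa1 in NF, Cst3 rose by 0.41 ± 0.13 (adjusted p = 0.0233 in edgeR) and Cstb, cystatin B, by 0.37 ± 0.10 (adjusted p = 0.00801). These were the 2 of 7 called higher and 0 fell, where 14.8% of all genes were higher and 13.5% lower. The calls of Cst3 and Cstb were lost without siHsp90aa1 replicate 1 (adjusted p = 0.0872 for Cst3 and 0.0656 for Cstb), and that of Cst3 also without TGFb1 control replicate 1 (0.0791) or 2 (0.0860). In CAF Serpinb6a, an intracellular serpin, was the 1 inhibitor of 7 called with siHsp90aa1, at 0.33 ± 0.08 (adjusted p = 0.00424). Of all genes 12.5% were higher there and 12.9% lower. Without control replicate 1, 2 inhibitors were called higher. With the replicate block 1 inhibitor was also called lower.

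The genes whose profile over the 21 libraries was most like that of Ctsw were Cfi, Cyth1, Pik3c2g, Furin and Kcnk12, with Pearson's r of log2 CPM from 0.967 to 0.972. Furin, a proprotein convertase, averaged 281 CPM in NF with TGFb1 and siHsp90aa1, 368 CPM with TGFb1 and siHsp90ab1, 362 CPM with TGFb1 and 178 CPM with vehicle. Those most like Ctsf were Ldlrad4, Ski, Igfbp7, Ehbp1l1 and Csrp1, with r from 0.963 to 0.967. Ski, a repressor of TGFb signalling, averaged 249.5 CPM in CAF with siHsp90aa1, 177 CPM with siHsp90ab1 and 180.0 CPM with control siRNA. The libraries fall into groups by line and TGFb1, so these values mainly describe group means.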

How the data were processed

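The authors deposited estimated counts (expected counts) per gene and TPM per gene, made with Salmon and STAR on GRCm38 per the submitters' processing notes; versions: not given in the sources used here. Libraries were stranded mRNA per the labels, and whether counting used strand is not given, so overlapping genes are uncertain. Of the deposited counts 10.9% were not whole and were rounded. edgeR 4.0.16 (R 4.3.3) fitted all 21 libraries with 1 coefficient per group, TMM factors, filterByExpr (minimum count 10, minimum total 15), a prior count of 0.125 and Benjamini-Hochberg adjustment over 15230 genes. DESeq2 1.42.0 was an alternative. The fit was tested on simulated data. Levels use TPM, folds use counts, and ratios of summed counts have exact 95% intervals. For likeness, CPM was logged after adding a prior count of 2. Gene positions come from GENCODE vM21 (98.8% of IDs matched).

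The labels give each replicate number as a batch, so equal numbers pair libraries; deviations from group means correlated above 0.1 in 56 of 63 same-numbered pairs (mean 0.338) and averaged -0.163 between other numbers, over 9205 genes. The fit with that block is given where it changes a member's call or a list count by over 1.5 times, and otherwise with the alternatives.

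Members and lists were chosen with earlier results of these data known. Named are all members, up to 4 called genes per list and comparison with the largest change, and the 5 genes most like Ctsw and Ctsf; neighbouring genes were added after their values were seen. Protein sequence features were not analysed here.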

Additional observations from a re-analysis of the deposited data

Results flagged for a closer look

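Ctsf differed between the lines in its response to siHsp90aa1, by a test of the difference itself. The log2 effect in CAF minus that in NF with TGFb1 was 2.51 ± 0.36 (adjusted p = 0.000732 in edgeR), with a rise in 3 of 3 CAF libraries and a fall in 3 of 3 NF libraries relative to every control library of the same line. Line and TGFb1 differ together here and cannot be told apart. The CAF control libraries took part in choosing Ctsf, so the test of the difference is no support of its own. Set against siHsp90ab1, with no library that chose the family, siHsp90aa1 gave 1.39 ± 0.25 in CAF and -1.44 ± 0.26 in NF. On leaving out each library of the 4 groups in turn, the CAF minus NF difference ran from 2.28 to 2.69, with adjusted p from 0.000863 to 0.00333. Gaps between single libraries were not tested, with groups of 3.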

How the results depend on the processing

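The alternatives were DESeq2, no filter, other scaling factors (RLE and upper quartile), the replicate block, the compared groups alone, and leaving out each library. With the replicate block the members called with siHsp90aa1 in CAF were 5 in place of 3 (Ctsk and Ctsl added). In the tested comparisons the block changed no other member's call. Among list counts given it also moved genes of the hydrolase list higher with siHsp90aa1 in NF to 20. Against siHsp90ab1 it moved them to 23 in NF and 16 in CAF, and with TGFb1 12 were lower. Leaving out 1 library gave 2 to 4 called members with siHsp90aa1 in either line, 3 to 4 between the knockdowns in either line, 5 to 6 between the lines with either knockdown, 1 for the CAF minus NF difference with siHsp90aa1, and 0 with siHsp90ab1 in either line or for its CAF minus NF difference. In NF the count was 2 without NF TGFb1 control replicate 1 or NF siHsp90aa1 replicate 1. The cause of these changes was not tested. Shares of all genes called in these alternatives are not given here, so the counts describe the members only. Of the member values given, those called in a test kept their sign in every alternative, and Ctsd with TGFb1, near 0, ran from -0.08 to 0.04 on leaving out a library. Between the knockdowns in CAF, Ctsw, at 12 counts or fewer, passed in DESeq2 (adjusted p = 0.0436) and without CAF siHsp90aa1 replicate 1 (0.0450). Ctsd between the lines with siHsp90aa1 passed without NF siHsp90aa1 replicate 1 (0.0106). Alternatives for the gene lists were chosen after seeing the data. Depth limits Ctsw, Ctss and Ctsk where they have few counts.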

Other observations

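Proteases that act beside cathepsins in the pericellular space were also measured, 5 of 11 above the filter on low counts. Mmp14, a membrane-bound collagenase, averaged 454 ± 64.2 CPM in CAF with siHsp90aa1 and 311 ± 33.2 CPM with control siRNA. The rise was 0.54 ± 0.10 on the log2 scale (adjusted p = 0.000963 in edgeR). Mmp14 was the 1 gene called there of the 5 tested, where 25.4% of all genes were called (12.5% higher, 12.9% lower). Mmp2, a gelatinase, was higher in CAF than in NF with TGFb1 by 2.50 ± 0.21 with siHsp90aa1 in both (adjusted p = 1.01e-08). Mmp9 was lower in CAF by a log2 value of -1.80 ± 0.16 in the same comparison (adjusted p = 1.39e-08).

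Of 7 genes of class II antigen processing, the pathway that Ctss and Ctsl serve in immune cells, 4 were tested. Cd74, the invariant chain, averaged 0.987 ± 0.264 CPM in CAF with siHsp90aa1 and 20.7 ± 4.25 CPM in NF with TGFb1 and siHsp90aa1 (adjusted p = 3.29e-09 in edgeR). In NF with TGFb1 it was higher with siHsp90aa1 than with siHsp90ab1 by 1.05 ± 0.28 (adjusted p = 0.00798), while Ctss stayed at 2 counts or fewer in each library. Between the lines with siHsp90aa1, 1 of the 4 was called higher in CAF and 1 lower (30.7% and 29.3% of all genes). The higher was H2-DMb1, at 0.383 ± 0.184 CPM in CAF and 0.0219 ± 0.00463 CPM in NF with TGFb1. Its log2 value was 4.04 ± 0.94 (adjusted p = 0.00115 in edgeR), with NF near the floor.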
